A study of Saccharomyces cerevisiae with 4 samples.

Results

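The genes described here make or recover NAD in the budding yeast Saccharomyces cerevisiae. They are 10 genes listed by name for their known role, BNA1, BNA2, BNA4, BNA5, BNA6, TNA1, PNC1, NPT1, NMA1 and NMA2, out of 5449 genes measured on Affymetrix arrays. The rule uses no measured value, although earlier results of these arrays were known when the list was made. RNA was compared between 4 strains, each with 1 array. The wild type was BY4742, a haploid laboratory strain of the alpha mating type, and the others were a SIR2 deletion (sir2Δ), a SIR3 deletion (sir3Δ) and a SIR4 deletion (sir4Δ), each made by recombination with a KanMX gene. The labels name the parent strain for the wild type alone and do not say whether each deletion strain was a single clone. All 4 cultures grew in YPD, a rich medium with glucose, at 30 °C to exponential phase, and the labels give no other treatment.

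NAD is made in yeast by several routes, and the de novo and salvage routes described here meet at nicotinic acid mononucleotide. The de novo route starts from tryptophan and runs through kynurenine to quinolinic acid, with Bna2, Bna7, Bna4, Bna5, Bna1 and Bna6 as its enzymes in that order. The salvage route takes up nicotinic acid through Tna1 or recovers it from nicotinamide through the nicotinamidase Pnc1, and Npt1 turns it into the mononucleotide. Nma1 and Nma2 then add the adenylyl group, and Qns1 completes NAD. Sir2 is a histone deacetylase that uses up NAD and releases nicotinamide, which inhibits it, whereas Sir3 and Sir4 are structural proteins of silent chromatin and consume no NAD. The related deacetylase Hst1, with Sum1 and Rfm1, is known to repress BNA genes, and PNC1 is known as a gene that responds to stress and to low glucose.

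With 1 array per strain there was no spread between replicates, no test was possible, and the precision of all values is limited by the number of arrays. Values below are log2 levels per probe set as the authors deposited them, differences are log2 differences, and a gene was called where it differed at least 2-fold. Adjacent levels in any order of strains given below could not be separated by a replicate spread. The labels were checked on the deleted genes, with SIR2 at 3.68 in sir2Δ, SIR3 at 4.51 in sir3Δ and SIR4 at 3.05 in sir4Δ, against 9.96, 9.32 and 9.98 in wild type. The background level, taken from the probe sets that the arrays carry for another yeast, lay between 4.28 and 4.39. All 10 NAD genes were above it on every array, each was read by a probe set of its own, and none of these probe sets belonged to the classes that match several sequences. The labelled mating type could be checked in wild type, where 5 of 5 alpha cell markers were above background with a summed linear level of 58483. In the deletions that sum was between 918 and 1362, and 1 of the markers, MF(ALPHA)1, was below background. All 5 were called lower in each, against 1.41%, 1.67% and 1.10% of all genes in sir2Δ, sir3Δ and sir4Δ. None of 6 a cell markers was called in a deletion, against 3.85% of all genes called in any. Their median differences were -0.15, -0.39 and -0.09 in sir2Δ, sir3Δ and sir4Δ. Of these 6, AGA2 lay 0.34 above background in wild type and below it in each deletion, so its differences were read near background. The 6 haploid markers summed to 8343 in wild type and to between 242 and 252 in the deletions. The part of this change in the NAD gene values was not tested.

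PNC1 differed more between the strains than any other gene of the list. The nicotinamidase gene (YGL037C) was at 9.85 in wild type, 11.96 in sir2Δ, 11.53 in sir3Δ and 9.89 in sir4Δ. Both sir2Δ and sir3Δ were thus high, and sir4Δ lay beside wild type. PNC1 rose 4.32-fold in sir2Δ, a difference of 2.11, and 3.21-fold in sir3Δ, a difference of 1.68, and it differed by 0.04 in sir4Δ. Ranked from the largest increase among 5449 genes, it held place 10 in sir2Δ, place 14 in sir3Δ and place 2501 in sir4Δ. Its range over the 4 arrays, 2.11, was reached or exceeded by 1.03% of all genes. The arrays read RNA of whole cultures, so a change in every cell and a larger change in some of the cells cannot be told apart.

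PNC1 and BNA5 were the only NAD genes called in any deletion against wild type. In sir2Δ 2 of the 10 genes were higher and none lower, where 1.45% of all genes were higher and 1.41% lower. In sir3Δ PNC1 was the 1 gene called higher and none was lower, against 0.734% and 1.67% of all genes. In sir4Δ none of the 10 was called in either direction, against 0.349% of all genes higher and 1.10% lower. The median difference of the 10 genes was 0.34 in sir2Δ, 0.17 in sir3Δ and 0.17 in sir4Δ, and that of all genes was 0.00, -0.01 and 0.03. Without PNC1 the medians of the remaining 9 genes were 0.30, 0.16 and 0.21. In sir2Δ 9 of the 10 genes lay above wild type, against 49.5% of all genes, or 10 against 55.7% with each array centred on its median. In sir3Δ 6 did, against 48.3%, or 7 against 51.9% with that centring and 7 against 52.5% with repeated quantile normalization. In sir4Δ 8 did, against 58.1%.

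**Figure D1:**
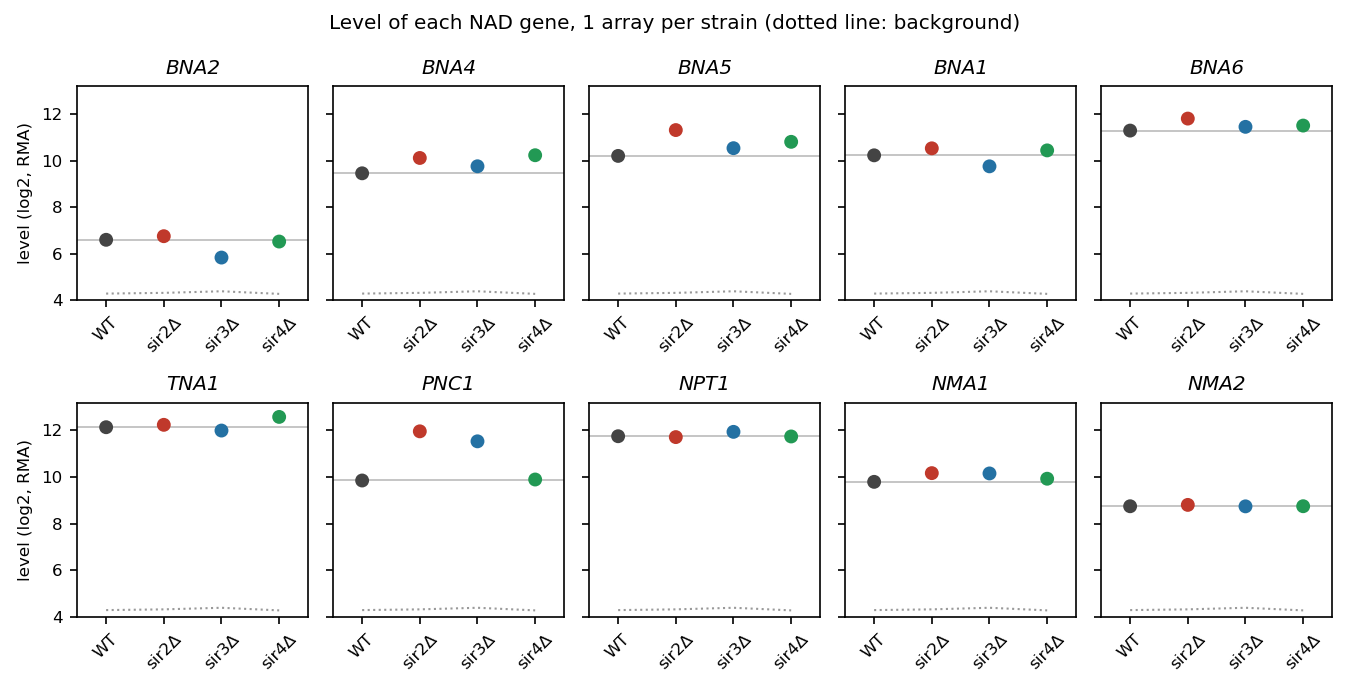
Level of each of the 10 NAD genes (vertical axis, log2 RMA level) in wild type and the 3 deletions (WT, sir2Δ, sir3Δ, sir4Δ), with 1 point per array, a grey line at the wild-type level and a dotted line at background. PNC1 is at 11.96 and 11.53 in sir2Δ and sir3Δ and at 9.85 and 9.89 in wild type and sir4Δ, while NMA2 is nearly level on all 4 arrays.

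The 5 de novo genes among the 10, which leave out BNA7, all lay above wild type in sir2Δ, as did 49.5% of all genes. BNA5 was the 1 called there, against 1.45% of all genes higher. In sir3Δ 3 lay above wild type and 2 below it, where 48.3% of all genes lay above. BNA5 (YLR231C), which encodes kynureninase, was at 10.20 in wild type, 11.31 in sir2Δ, 10.53 in sir3Δ and 10.80 in sir4Δ. All 3 deletions were above wild type, and sir2Δ was the highest. BNA5 rose 2.16-fold in sir2Δ, a difference of 1.11, which put it at place 62 of 5449 genes, and it differed by 0.33 and 0.60 in sir3Δ and sir4Δ. BNA4 (YBL098W), the kynurenine monooxygenase gene, was at 9.45 in wild type, 10.11 in sir2Δ, 9.75 in sir3Δ and 10.23 in sir4Δ. It too was lowest in wild type, but its highest array was sir4Δ. Its difference of 0.78 there, or 1.71-fold, held place 39 of all genes, and it differed by 0.66 and 0.30 in sir2Δ and sir3Δ.

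BNA6 (YFR047C) encodes quinolinate phosphoribosyltransferase, which joins the de novo route to the common path. It was at 11.29 in wild type, 11.80 in sir2Δ, 11.45 in sir3Δ and 11.50 in sir4Δ. The order of the strains was that of BNA5, with smaller differences of 0.52, 0.16 and 0.22. BNA2 and BNA1 departed from the other de novo genes in sir3Δ. BNA2 (YJR078W), the tryptophan dioxygenase gene that opens the route, was at 6.60 in wild type, 6.75 in sir2Δ, 5.84 in sir3Δ and 6.52 in sir4Δ. Its difference of -0.76 in sir3Δ was the lowest of the 10 genes, at place 139 from the largest decrease among all genes, and was -0.60 after the quantile normalization was repeated over the Saccharomyces cerevisiae probe sets. BNA2 lay 2.31 above background in wild type and 1.45 above it in sir3Δ.

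BNA1 (YJR025C) encodes hydroxyanthranilate dioxygenase. It was at 10.22 in wild type, 10.52 in sir2Δ, 9.75 in sir3Δ and 10.44 in sir4Δ. The sir3Δ strain was the only array below wild type, with a difference of -0.47, while sir2Δ and sir4Δ differed by 0.30 and 0.21. At a limit of 1.5-fold, BNA4 joined PNC1 and BNA5 as higher in sir2Δ, giving 3 of the 10 genes against 5.41% of all genes, with none lower against 5.07%. At that limit PNC1 was higher and BNA2 lower in sir3Δ, against 2.72% and 3.78% of all genes. In sir4Δ BNA4 and BNA5 were then higher and none lower, against 1.41% and 2.09%, and the call of BNA5 ended with repeated quantile normalization, at 0.578. Over the 5 de novo genes the median difference was 0.52 in sir2Δ, 0.16 in sir3Δ and 0.22 in sir4Δ.

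The other genes of uptake and salvage moved less than PNC1. TNA1 (YGR260W), the nicotinic acid permease gene, was at 12.14 in wild type, 12.24 in sir2Δ, 11.996 in sir3Δ and 12.58 in sir4Δ. The sir4Δ strain stood above the other arrays, with a difference of 0.44 from wild type at place 154 of all genes. NPT1 (YOR209C) encodes nicotinate phosphoribosyltransferase, the enzyme that uses the product of Pnc1. It was at 11.75 in wild type, 11.72 in sir2Δ, 11.94 in sir3Δ and 11.74 in sir4Δ, and sir2Δ, the highest array for PNC1, was the lowest for NPT1 as deposited. Its difference in sir2Δ was -0.04 as deposited and 0.00 after each array was centred on its median, and in sir3Δ it was 0.19.

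Of the paralogous adenylyltransferase genes, NMA2 lay close to wild type on every array, while NMA1 was somewhat higher in sir2Δ and sir3Δ. NMA1 (YLR328W) was at 9.79 in wild type, 10.17 in sir2Δ, 10.16 in sir3Δ and 9.93 in sir4Δ. Its order of strains was that of PNC1, with differences of 0.37, 0.36 and 0.13. NMA2 (YGR010W) was at 8.75 in wild type, 8.81 in sir2Δ, 8.74 in sir3Δ and 8.75 in sir4Δ. Its range over the 4 arrays was 0.06, and 96.7% of all genes had at least that range.

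**Figure D2:**
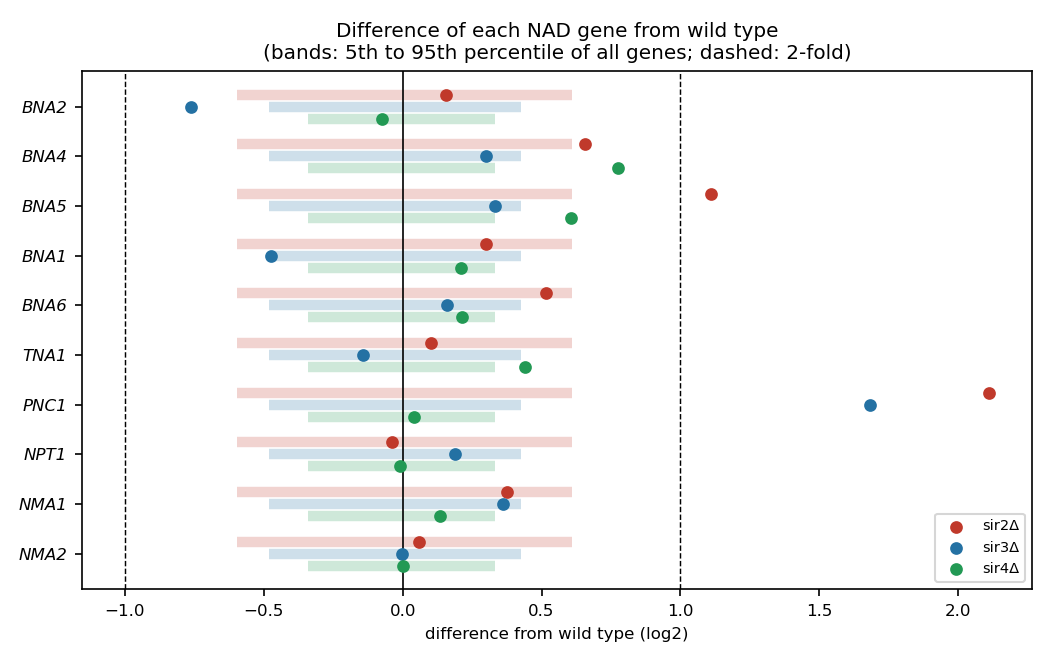
Log2 difference from wild type (horizontal axis) of each of the 10 NAD genes in sir2Δ, sir3Δ and sir4Δ, 1 array per strain, with bands from the 5th to the 95th percentile of all 5449 genes and dashed lines at 2-fold. PNC1 in sir2Δ and sir3Δ and BNA5 in sir2Δ lie beyond 2-fold, and BNA2 in sir3Δ lies at -0.76.

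The deletions were also set against each other, which leaves the wild-type array out. PNC1 was called higher in sir2Δ than in sir4Δ, by 2.07 or 4.19-fold, at place 5 of all genes. It was the 1 NAD gene called there, where 1.16% of all genes were higher and 0.496% lower. It was likewise the 1 NAD gene called between sir3Δ and sir4Δ, higher in sir3Δ by 1.64 or 3.11-fold at place 4, against 0.496% of all genes higher and 0.771% lower. Between sir2Δ and sir3Δ no NAD gene was called, against 0.807% of all genes higher and 0.239% lower in sir2Δ. PNC1 differed there by 0.43. At a limit of 1.5-fold 3 NAD genes, BNA2, BNA5 and BNA1, were higher in sir2Δ than in sir3Δ and none lower, against 3.32% and 1.43% of all genes. At that limit PNC1 was still the 1 NAD gene called between sir2Δ and sir4Δ, against 4.48% of all genes higher and 3.93% lower. Between sir3Δ and sir4Δ PNC1 was then higher and BNA2, BNA1 and TNA1 were lower in sir3Δ, against 2.11% and 3.16%, with the call of TNA1 ended by centring and those of TNA1 and BNA2 by repeated quantile normalization.

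The 5 de novo genes among the 10 were all higher in sir2Δ than in sir3Δ, as were 51.2% of all genes. Their median was 0.77 against 0.00 for all genes, while BNA7, the other gene of the route, differed by -0.01. BNA2 differed by 0.92, BNA5 by 0.78, BNA1 by 0.77, BNA4 by 0.36 and BNA6 by 0.35. The sir3Δ strain also lay below sir4Δ for these 5, as it did for 3071 of all 5449 genes. Their median there was -0.47 against -0.03 for all genes, and for BNA7 sir3Δ differed from sir4Δ by 0.05. BNA2 and BNA1 differed by -0.69 and -0.68 in that comparison, and TNA1 by -0.59. PNC1, NPT1 and NMA1 went the other way and were higher in sir3Δ than in sir4Δ, the last pair by 0.20 and 0.23.

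Across the list sir2Δ was most often the highest strain. It was the highest for 7 of the 10 genes, against 30.6% of all genes, and sir4Δ was the highest for BNA4 and TNA1 and sir3Δ for NPT1. With each array centred on its median sir2Δ was the highest for 7, against 36.3%. It was also the highest for 10 of the 15 further genes of NAD metabolism described below. Wild type was the highest for none of the 10, against 20.9% of all genes, and the lowest for 5, against 24.9%. With the centring it was the lowest for 6, against 28.2%, and with repeated quantile normalization for 6, against 26.3%. The 5 were BNA4, BNA5, BNA6, PNC1 and NMA1, each above wild type in all 3 deletions, as were 24.8% of all genes. The order of NMA2 rested on differences of at most 0.06. No NAD gene of the list was below wild type in all 3 deletions, where 20.9% of all genes were.

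Of 15 further genes of NAD metabolism, none was called in any deletion, against 3.85% of all genes. Their medians were 0.23, 0.08 and 0.06 in sir2Δ, sir3Δ and sir4Δ. BNA3, a kynurenine aminotransferase gene at the branch of the de novo route, was at 11.06 in wild type, 11.85 in sir2Δ, 11.67 in sir3Δ and 11.12 in sir4Δ. It was thus high in the same strains as PNC1, with differences of 0.79, 0.61 and 0.06. POS5, the mitochondrial NADH kinase gene, differed by 0.40, 0.41 and 0.28. At the other end NRK1, the nicotinamide riboside kinase gene, differed by -0.54, -0.46 and -0.06 from a wild-type level of 10.56, and SDT1, a nucleotidase gene, differed by -0.45, -0.48 and 0.49. BNA7, which encodes the kynurenine formamidase that acts between Bna2 and Bna4, differed by 0.16, 0.17 and 0.12, and QNS1, the NAD synthetase gene, by 0.31, 0.10 and -0.05.

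Of 10 genes of tryptophan synthesis and uptake, which supply the de novo route, 9 were measured. None was called in any deletion, against 3.85% of all genes. Their medians were 0.06, 0.02 and 0.21 in sir2Δ, sir3Δ and sir4Δ. All 9 lay above wild type in sir4Δ, against 58.1% of all genes, or 8 against 55.6% with repeated quantile normalization. TRP5, the tryptophan synthase gene, differed by 0.24, 0.13 and 0.11 and TRP3, an anthranilate synthase gene, by 0.15, 0.02 and 0.28. ARO1 and ARO4, of the path to chorismate, differed by -0.05, -0.02 and 0.05 and by -0.07, -0.01 and 0.17. Among 7 genes of NAD-using deacetylases and of the Sum1 complex, SIR2 was the 1 called, against 3.85% of all genes called in any deletion. It was called lower in its own deletion, which its removal fixed beforehand. HST1, SUM1 and RFM1 were at 11.64, 10.76 and 7.995 in wild type. HST1 differed by -0.19, -0.07 and 0.07, SUM1 by -0.02, 0.09 and -0.02, and RFM1 by -0.44, 0.04 and -0.01. HST2 differed by 0.32, 0.16 and -0.04 and HST3 by -0.31, -0.44 and -0.06.

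Some stress response genes were high in the same strains as PNC1 and others were not. The list held 21 genes, the factors MSN2 and MSN4 and 19 known targets, with medians of 0.67, 0.13 and -0.13 in sir2Δ, sir3Δ and sir4Δ. In sir2Δ 7 of them were higher and 1 lower, against 1.45% and 1.41% of all genes. Those higher were TSL1 at 2.16, HSP42 at 1.61, GLK1 at 1.57, HSP104 at 1.56, GSY2 at 1.29, HXK1 at 1.17 and TPS1 at 1.02, and DDR2 was lower at -1.43. The 7 higher genes encode, in that order, a trehalose synthase subunit, a small heat shock protein, glucokinase, a disaggregase, glycogen synthase, a hexokinase and trehalose phosphate synthase.

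In sir3Δ 1 stress gene was higher, HSP104 at 1.20, against 0.734% of all genes. Against 1.67% of all genes, 3 were lower, DDR2 at -2.19, HSP26 at -2.06 and YGP1 at -1.37. These 3 genes were therefore low in a strain where PNC1 was high. In sir4Δ none was higher, and HSP26 at -1.33 and HXK1 at -1.28 were lower, against 0.349% and 1.10% of all genes. MSN2 differed by 0.42, 0.13 and 0.22 and MSN4 by 0.32, 0.61 and 0.18. The summed linear level of the 21 genes was 13192 in wild type and 26667, 16062 and 12323 in sir2Δ, sir3Δ and sir4Δ. The part of the stress genes in the PNC1 values was not tested.

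Pnc1 is known to enter peroxisomes together with Gpd1, a glycerol phosphate dehydrogenase, through the receptor Pex7 and its partner Pex21. Of 5 genes of this list GPD1 was called in a deletion, against 3.85% of all genes called in any. It was at 10.55 in wild type, 12.41 in sir2Δ, 12.05 in sir3Δ and 11.16 in sir4Δ, and its differences were 1.86, 1.498 and 0.61. GPD1 was therefore high in the same strains as PNC1, with sir4Δ also above wild type. PEX7 differed by 0.10, 0.13 and 0.24, PEX21 by -0.24, -0.06 and 0.02, PEX5 by -0.22, -0.19 and -0.01, and the paralog GPD2 by 0.24, 0.10 and 0.35.

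**Figure D3:**
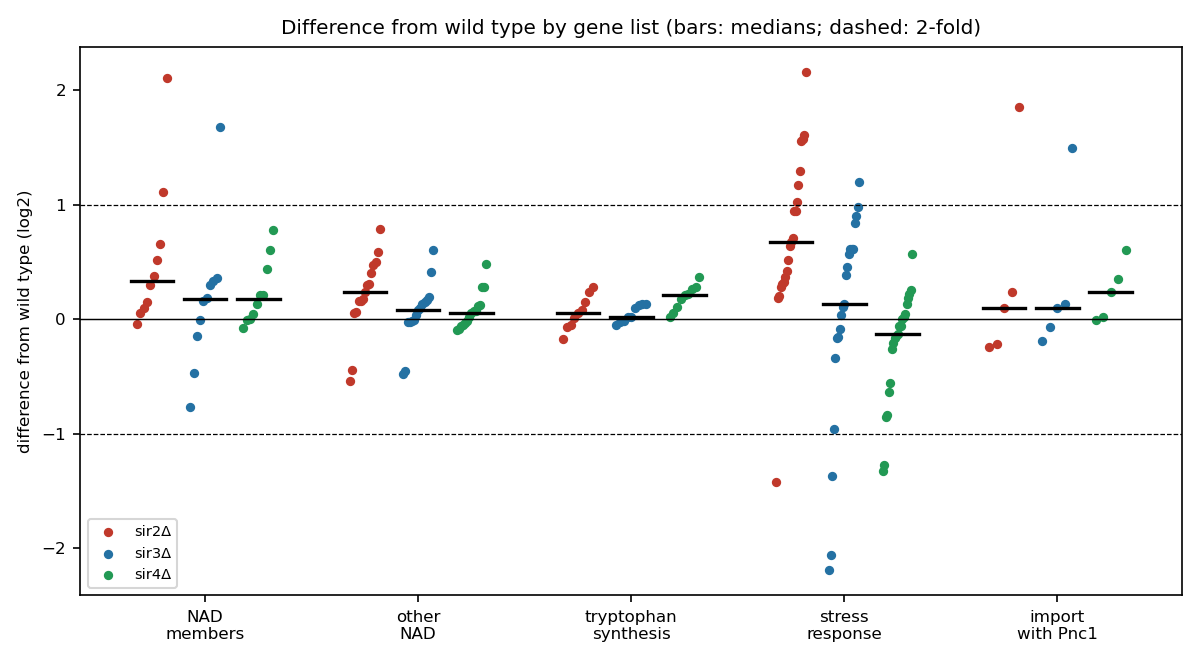
Log2 difference from wild type (vertical axis) of the genes of 5 lists in sir2Δ, sir3Δ and sir4Δ, with 1 point per gene, black bars at the list medians and dashed lines at 2-fold. PNC1 at 2.11 and 1.68 stands apart from the other NAD genes as GPD1 at 1.86 and 1.498 does in its list, and the stress genes spread to both sides in sir3Δ.

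The genes whose pattern over the 4 arrays was nearest to that of PNC1 were found by Euclidean distance after each gene's own mean was subtracted. With 4 points per gene this describes likeness on these arrays and no more. The 6 nearest of 5283 other genes above background on all arrays were HSP78, HSP104, YPC1, TSL1, HSP82 and CYC7, at distances of 0.301, 0.427, 0.460, 0.598, 0.598 and 0.632. HSP78, a mitochondrial chaperone gene, was at 7.66 in wild type, 9.44 in sir2Δ, 8.97 in sir3Δ and 7.57 in sir4Δ. YPC1, a ceramidase gene, was at 6.95, 9.04, 8.24 and 7.24 in the same order of strains. Both were high in sir2Δ and sir3Δ and near wild type in sir4Δ. HSP82, a chaperone gene of the Hsp90 family, differed by 1.35, 0.998 and -0.55, and CYC7, a cytochrome c gene, by 1.67, 0.95 and 0.06. GPD1 was at place 8 with a distance of 0.644. Of the other NAD genes BNA3 was the nearest, at place 65, followed by BNA5 at place 347.

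**Figure D4:**
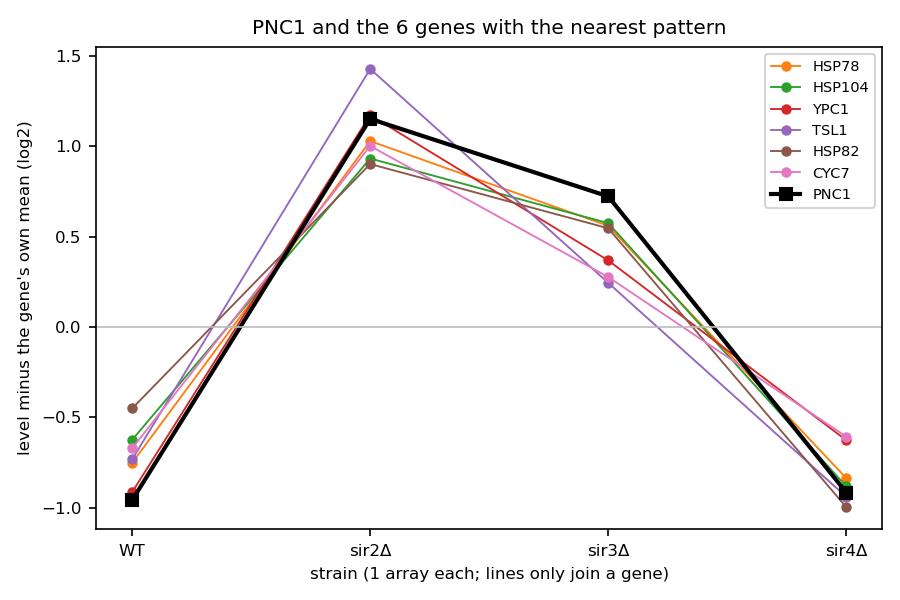
Level of PNC1 and of the 6 genes with the nearest pattern, each minus its own mean over the 4 strains (vertical axis, log2), with 1 array per strain (horizontal axis). All 7 genes are high in sir2Δ and low in wild type and sir4Δ, and PNC1 is the highest of them in sir3Δ.

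PNC1 was 1 of 15 genes, or 0.275% of all genes, called higher in sir2Δ and sir3Δ and not in sir4Δ. The others were PTR2, YPC1, CAR2, YER053C-A, GPD1, HSP78, HSP104, CIT1, COS7, SKS1, CYT1, RGI1, MTH1 and SDH1, named here because they fill that count. Among them PTR2, a peptide transporter gene, had 0.91 in sir4Δ and COS7 had 0.91, just below the limit for a call, while PNC1 had 0.04.

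The series concerns subtelomeric regions, and none of the 10 NAD genes is among the outermost protein-coding genes of a chromosome in the R64 reference annotation. Counted from the nearer end, BNA6 held place 10 and BNA4 place 16, followed by TNA1 at place 32, and PNC1 was at place 213. Of the 20 nearest measured genes on either side of the 10 genes, 1 was called in any deletion, against 3.85% of all genes. This was TMA10 beside NMA1, at 1.17 in sir2Δ and -0.04 and -0.56 in sir3Δ and sir4Δ, a pattern that NMA1 did not share. Beside PNC1, OCH1, a mannosyltransferase gene, differed by 0.75, 0.16 and 0.76, and MIG1, the repressor of glucose-repressed genes, by 0.32, 0.59 and 0.05.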

How the data were processed

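Per the submitters' processing notes the authors used RMA, whose log2 output per probe set was deposited. Each strain gave 200 ng of total RNA for the array maker's 3 prime labelling kit, per the labels' protocols. Version and settings of RMA were not stated in the labels. Because RMA equalises the arrays, a change common to most genes would be hidden. Of 10928 probe sets, 5498 matched 5449 genes of the R64 reference table by gene identifier, and 1746 belonged to the other yeast. The brightest probe set stood for a gene with several. The background level was the 95th percentile of the other yeast's probe sets. Differences were computed with pandas 2.3.3 in Python 3.11.15, and the computation was tested on simulated data. With 1 array per strain there was no test. The members and lists were chosen with earlier results of these arrays known.

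Named genes were the 10 members, the deleted genes, the list genes called in any deletion or, in lists with none, the 2 highest and the 2 lowest by mean difference, and the 6 genes nearest to PNC1 in pattern. Other genes (further list members, chromosomal neighbours and genes filling a small count) were named outside this rule, with their values known. Alternatives comprised fold limits of 1.5 and 3, median centring, repeated quantile normalization, a floor at background, averaging a gene's probe sets, and leaving out shared probe sets or genes below background. The planned searches of promoters for motifs and the comparison of the NMA1 and NMA2 proteins were not run, as those sequences were not used here.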

Additional observations from a re-analysis of the deposited data

Results flagged for a closer look

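For 3 genes a pair of deletions lay on opposite sides of wild type and at least 0.5 apart on the log2 scale. BNA2 was above wild type in sir2Δ and below it in sir3Δ, which were 0.92 apart. BNA1 was 0.77 higher in sir2Δ than in sir3Δ, and sir3Δ differed from sir4Δ by -0.68. TNA1 differed by -0.59 between sir3Δ and sir4Δ. With 1 array per strain none of these differences was tested.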

How the results depend on the processing

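No paired analysis was possible because each strain had 1 array and the labels give no replicate numbers. At the 2-fold limit none of the 6 alternatives other than the fold limit changed a count. Only centring and repeated quantile normalization could have done so. The floor, the averaging and both ways of leaving out could not change a member's value. Each member had 1 probe set, which was not shared, and was above background on every array. At 3-fold, the call of BNA5 in sir2Δ ended, which left 1 gene there, PNC1, higher. PNC1 was also beyond 3-fold in sir3Δ, at 3.21-fold. It was so in sir2Δ and sir3Δ against sir4Δ too, at 4.19-fold and 3.11-fold. The shares of all genes at 1.5-fold are those given above, and none was computed at 3-fold. At 1.5-fold, 2 of the 10 genes were called in sir3Δ, of which 1 was lower, and 2 in sir4Δ, both higher. At 1.5-fold 3 were called between sir2Δ and sir3Δ, all higher in the former, and 4 between sir3Δ and sir4Δ, of which 3 were lower in the former. Both rescalings were also tried at 1.5-fold, a choice made after seeing the data. Repeated quantile normalization left 1 gene higher in sir4Δ than in wild type and 1 lower in sir3Δ than in sir4Δ, and centring left 2 lower in the latter comparison. They changed no other 1.5-fold count. Of 360 differences of single members under the 6 alternatives, 7 changed sign, all of NPT1 or NMA2 and at most 0.04 in size as reported. The 7 arose under centring or repeated quantile normalization. Under the other alternatives the largest shift was 0.0000, so the differences counted there were fixed beforehand and say nothing about robustness. The largest shift was 0.214, when repeated quantile normalization moved BNA2 in sir3Δ to -0.60 against wild type, 0.70 for sir2Δ against it, and -0.50 against sir4Δ. The absence of replicate arrays is the main limit.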
